A study of Caenorhabditis elegans with 4 samples.

Results

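Heterochronic genes set the order and timing of cell fates during the development of the nematode Caenorhabditis elegans. The 9 genes described here are lin-14 (T25C12.1), lin-28 (F02E9.2), lin-46 (R186.4), hbl-1 (F13D11.2), lin-41 (C12C8.3), lin-42 (F47F6.1), daf-12 (F11A1.3), lin-29 (W03C9.4) and mab-10 (R166.1). They were chosen by name, as the rows of the array tables whose sequence identifier was that of the gene, with or without an isoform letter. All 9 genes were found, with 18 transcript rows, among 19380 named genes and 23181 rows in all. The series profiled total RNA of early embryos on 4 single-colour NimbleGen arrays, labelled as strain PFR40 with the allele tm1489 of hpl-2, a gene for a heterochromatin protein 1 homolog. The 4 arrays form 1 group, and the wild-type arrays that the design text sets against them were not analysed here. The results therefore hold no difference between mutant and wild type. The growth protocol speaks of N2 (wild-type) adults, in conflict with the genotype labels, and no source used here resolves this. Embryos came from gravid adults bleached after liquid culture, hermaphrodites with some males, and no label tells if the replicates were separate cultures. The p-values below then measure only the spread between these samples, which may be technical.

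In the larva, heterochronic regulators act in sequence. The microRNA lin-4 lowers the transcription factor LIN-14 and the RNA-binding protein LIN-28 after the early larval stages. The let-7 family of microRNAs (let-7, mir-48, mir-84 and mir-241) later lowers HBL-1 and LIN-41, which releases LIN-29, the factor of the switch from larva to adult. Many of these genes are also known for roles outside the larva, hbl-1 in the embryo and lin-41 in the oocyte among them. No array row was matched by name to the microRNA genes themselves, lin-4, let-7, mir-48, mir-84 and mir-241, so they were not analysed here.

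Each array gave a linear signal per transcript, quantile normalized by the authors, with medians of 576 to 591. As background served, on each array, the signal that 95% of 1326 chemoreceptor genes did not exceed. Their receptors serve sensory neurons. It came to a signal of 273, 350, 309 and 357 on arrays 1 to 4, which are replicates 1 to 4 of the labels. The log2 signal above this background was tested against 0 with limma over all rows, and a row was called above or below at an adjusted p under 0.05. By definition most chemoreceptor genes lie under this background, so a call below it does not tell a gene from them. Level differences between rows also reflect the brightness of their probes, so genes were not ranked by level. Markers of the labelled stage were present, with 8 of 8 maternal genes and 8 of 8 early zygotic genes above background. Of all named genes, 51.9% were above it. Markers chosen for later embryos were above it too, with 8 of 8 muscle genes and 8 of 8 epidermis and cuticle genes. Of the neuron genes chosen for later embryos, 4 of 8 were above, near the share of all named genes. These calls therefore do not settle the stage of the embryos. Array 1 stood apart from the other arrays for markers of several tissues, as given with the array differences.

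The heterochronic genes divided by their calls. Of the 9 genes, 5 were above background (lin-28, hbl-1, lin-41, lin-42 and daf-12), against 51.9% of all named genes. Another 2 genes, lin-14 and lin-29, were below it, against 39.2% of all named genes, while lin-46 and mab-10 passed in neither direction. Of the 18 rows, 12 were above background (55.0% of all rows) and 4 were below it (36.2% of all rows). The median of the 9 genes lay at 0.88 log2 above background and that of all named genes at 0.48, so the shares and the median of these genes were near those of the whole table. Rows of 1 gene may rest on shared probes and are not independent.

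**Figure D1:**
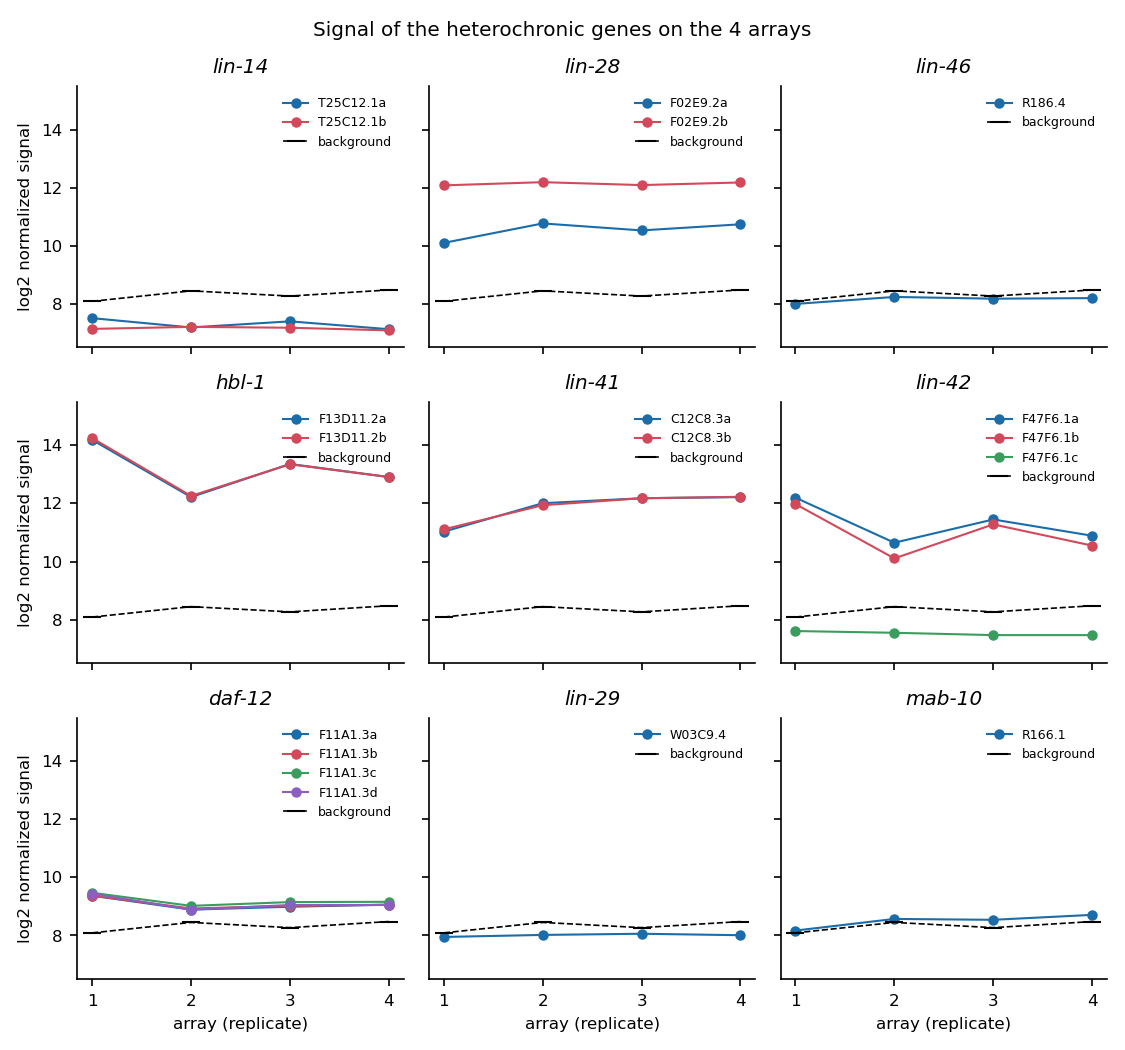
Log2 normalized signal of each transcript row (vertical axis) on arrays 1 to 4 (horizontal axis), 1 panel per gene, with the background of each array as dashed black marks. Lines join the values of 1 row and mark no order of the arrays. The rows of hbl-1, lin-41, lin-28 and daf-12 and the first 2 rows of lin-42 lie above the background on every array, while those of lin-14, lin-29 and lin-46 and the third row of lin-42 lie under it on every array.

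Among the regulators of early larval fates, lin-14 gave no signal above background. LIN-14 is a DNA-binding protein of the first larval stage and the founding target of lin-4. Its row T25C12.1a had signals of 182, 146, 168 and 140 on arrays 1 to 4. Its row T25C12.1b had signals of 141, 148, 145 and 136. Every value was under the background of its array, and the arrays differed little in the second row, with a 1.09-fold range. On the log2 scale above background T25C12.1a lay at -1.02 ± 0.35 (SD, n = 4; limma, adjusted p = 0.000139) and T25C12.1b at -1.17 ± 0.19 (SD, n = 4; adjusted p = 7.41e-06). No row of lin-14 was called above any of the 4 backgrounds tried, and with the 75th percentile of the chemoreceptors T25C12.1a was not told apart from it, at -0.18.

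The RNA-binding protein gene lin-28, whose product blocks the processing of let-7, was above background on every array. Its row F02E9.2b had signals of 4339, 4674, 4353 and 4648 on arrays 1 to 4, the steadiest row among the genes called above, with a 1.08-fold range. It lay 3.81 ± 0.13 log2 above background (SD, n = 4; limma, adjusted p = 1.11e-09). The other row, F02E9.2a, had signals of 1099, 1741, 1484 and 1716, a 1.58-fold range with array 1 lowest, and lay 2.21 ± 0.14 above background (SD, n = 4; adjusted p = 4.82e-08). The rows thus differed in their pattern over the arrays, by up to 0.38 log2 after each was centred on its own mean. The gene lin-46, which acts downstream of lin-28 and encodes a protein related to the scaffold protein gephyrin, stayed close to background. Its signals of 257, 303, 291 and 294 were each slightly under the background of the array, and its value of -0.17 ± 0.10 log2 (SD, n = 4) missed the threshold (adjusted p = 0.0937). Without array 1 it was called below, at -0.19 (limma, adjusted p = 0.0465).

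The zinc finger gene hbl-1, the homolog of hunchback of Drosophila and a target of the let-7 family, was above background on every array and had the widest range between arrays of the 9 genes. Its row F13D11.2b had signals of 19528, 4894, 10466 and 7677 on arrays 1 to 4. Array 1 was highest and array 2 lowest, a 3.99-fold range. The row F13D11.2a gave nearly the same values, 18640, 4761, 10544 and 7707. On the log2 scale above background F13D11.2b lay at 4.87 ± 1.01 (SD, n = 4; limma, adjusted p = 1.64e-06), and the lowest array was 3.81 above it. In bulk embryos fewer expressing cells and less RNA per cell cannot be told apart.

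The let-7 target lin-41 was above background as well, but lowest on array 1, where hbl-1 was highest. LIN-41 is a TRIM-NHL protein that binds RNA and also controls oocyte growth and maturation. Its row C12C8.3b had signals of 2218, 3940, 4642 and 4799 on arrays 1 to 4, and C12C8.3a had 2084, 4122, 4629 and 4785. Array 1 was lowest in both rows, and arrays 2 to 4 spanned only 1.22-fold in C12C8.3b. That row lay 3.54 ± 0.39 log2 above background (SD, n = 4; limma, adjusted p = 5.01e-08).

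The gene lin-42, the homolog of the circadian gene Period, differed between its rows. F47F6.1a had signals of 4690, 1606, 2805 and 1897 on arrays 1 to 4, and F47F6.1b had 4030, 1102, 2480 and 1500. Both were highest on array 1 and lowest on array 2, with ranges of 2.92-fold and 3.66-fold. They lay 2.97 ± 0.86 and 2.65 ± 1.00 log2 above background (SD, n = 4; limma, adjusted p = 1.59e-05 and 7.48e-05). The row F47F6.1c had signals of 196, 188, 177 and 177, under the background on every array, and was called below at -0.80 ± 0.23 (SD, n = 4; adjusted p = 0.00014). A row under the background may fail to show an array difference of its transcript. The 1.11-fold range of F47F6.1c therefore says nothing of the pattern of the other rows. Probe brightness was not known for these rows, so their signals give no ratio of isoforms.

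The nuclear hormone receptor gene daf-12, whose product couples hormone signals to stage progression, gave a low signal above background. Its row F11A1.3c had signals of 709, 520, 568 and 571 on arrays 1 to 4. The rows F11A1.3a, F11A1.3b and F11A1.3d ran from 473 to 695, and all were highest on array 1 and lowest on array 2. F11A1.3c lay 0.88 ± 0.36 log2 above background (SD, n = 4; limma, adjusted p = 0.000362). The call depended on the background, since with the 99th percentile of the chemoreceptors the row lay at -0.04 and was not told apart from it (adjusted p = 0.78).

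The late genes of the pathway were at or under the background. The zinc finger gene lin-29, the final regulator of the switch to adult fates, had signals of 248, 260, 267 and 258 on arrays 1 to 4. These values hardly differed, with a 1.08-fold range, and each was under the background of its array. On the log2 scale lin-29 lay at -0.31 ± 0.16 (SD, n = 4; limma, adjusted p = 0.0133). The call was lost without array 2 (-0.27, adjusted p = 0.075) or array 4 (-0.26, adjusted p = 0.0719). When the background was lowered to the 75th chemoreceptor percentile, lin-29 was called above, at 0.53 (adjusted p = 0.000119), and so were lin-46 at 0.67 and mab-10 at 1.01. The gene mab-10, which encodes a NAB-type cofactor of LIN-29, had signals of 289, 381, 372 and 417. Each lay above the background of its array by 0.08 to 0.27 log2, with array 1 lowest. The mean of 0.17 ± 0.09 (SD, n = 4) missed the threshold (limma, adjusted p = 0.0798), and without array 1 it passed, at 0.21 (adjusted p = 0.0345). With the 99th chemoreceptor percentile as background mab-10 was called below, at -0.74 (adjusted p = 3.82e-05).

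**Figure D2:**
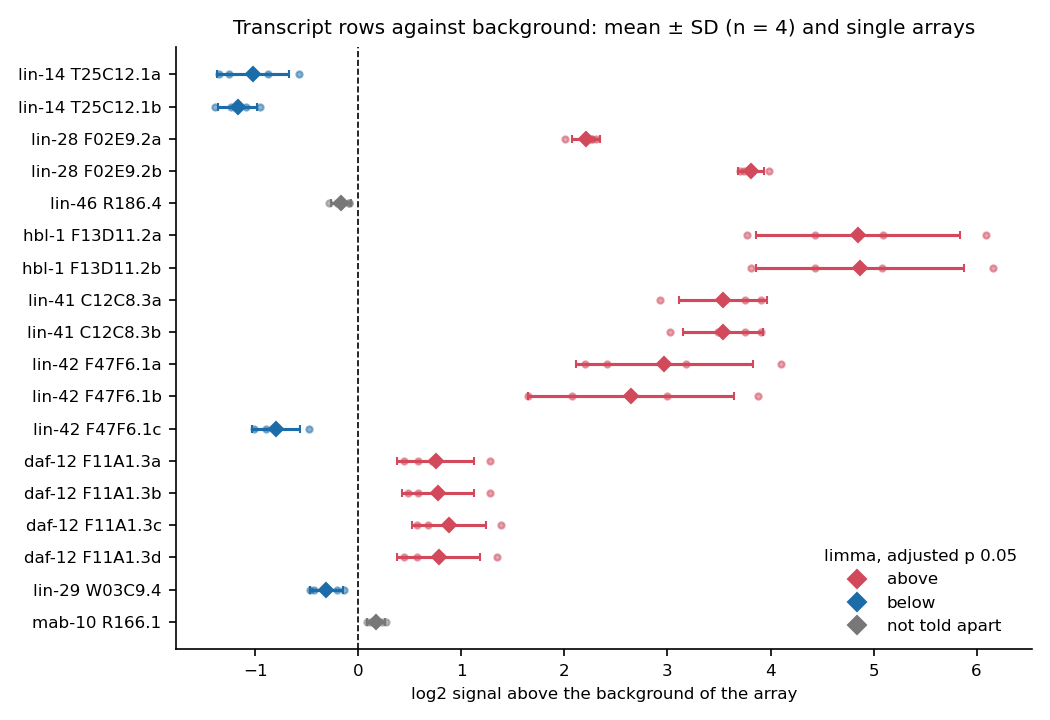
Log2 signal above the background of the array (horizontal axis) for the 18 transcript rows, with single arrays as small points and the mean ± SD (n = 4) as diamonds, coloured by the limma call. The rows of hbl-1 lie at 4.85 and 4.87 with wide error bars, those of daf-12 lie between 0.75 and 0.88, and lin-29, lin-46 and mab-10 lie within 0.4 of 0.

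Between arrays, hbl-1 and lin-42 varied far more than most genes, and lin-41 varied in another direction. As deviations of the log2 signal from the mean of the 4 arrays, hbl-1 lay at 1.06, -0.94, 0.16 and -0.29 on arrays 1 to 4. In the same order lin-42 (F47F6.1a) lay at 0.90, -0.65, 0.16 and -0.41. The gene lin-41 lay at -0.75, 0.08, 0.31 and 0.36, and daf-12 at 0.27, -0.18, -0.05 and -0.04. The deviations of hbl-1 and lin-42 differed by 0.14 log2 on average over the arrays, and those of hbl-1 and lin-41 by 0.91. The replicates belong to 1 group, so these differences were described and not tested.

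Of the 5 genes above background, 3 had a range of at least 1 log2 over the arrays (hbl-1, lin-42 and lin-41), against 6.84% of all named genes above background. The median range of the 5 was 1.11 log2, and that of the 10053 named genes above background was 0.26. The range of hbl-1 was larger than that of 98.9% of those genes, that of lin-42 larger than 97.6%, that of lin-41 larger than 94.5%, that of daf-12 larger than 71.9% and that of lin-28 larger than 15.6%. Taking each gene by its row with the highest mean, 1 of the 5 (hbl-1) had a range of at least 1 log2 without array 1, against 1.08% of all named genes above background. For lin-42 this depended on the row, since F47F6.1b had a 2.25-fold range over arrays 2 to 4 (1.17 log2) and F47F6.1a, the row taken, 1.75-fold. Over those arrays hbl-1 had a 2.14-fold range and lin-41 1.22-fold, and the median range of the 5 genes fell to 0.28 log2 against 0.12 for all. Of the 5 genes, 3 were highest on array 1 (hbl-1, lin-42 and daf-12), against 26.9% of all named genes above background, and these 3 were lowest on array 2. The 2 genes lowest on array 1 were lin-41 and lin-28, against 54.9% of all.

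**Figure D3:**
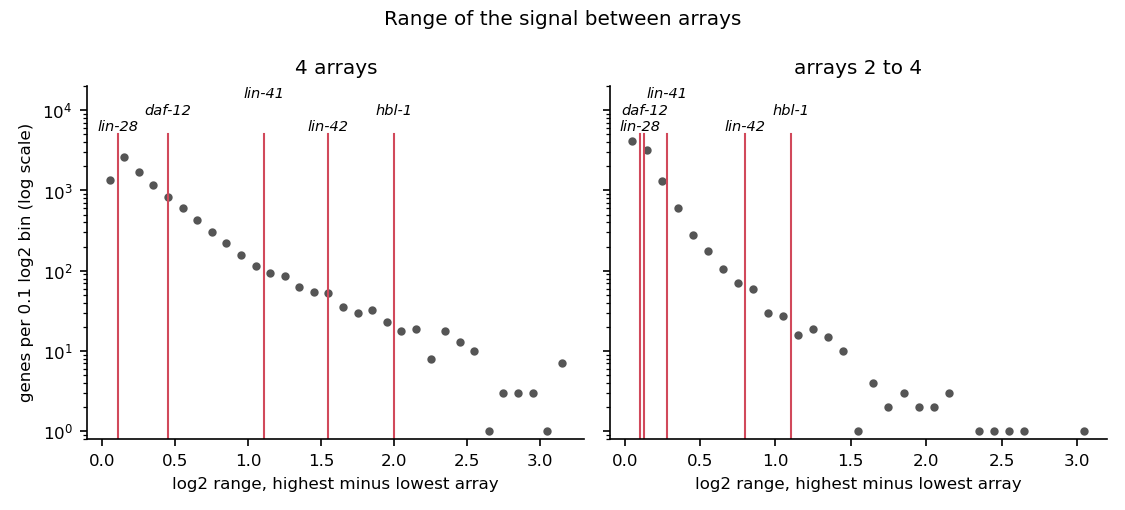
Number of named genes above background (points, log axis) by the log2 range of their signal, in bins of 0.1 with the last bin open, over the 4 arrays (left) and over arrays 2 to 4 (right). Red lines mark the heterochronic genes above background. With the 4 arrays hbl-1, lin-42 and lin-41 lie in the sparse right tail, and without array 1 lin-41 moves back to 0.28 while hbl-1 stays at 1.10.

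Markers of other tissues and markers chosen for later embryos differed between the same arrays. The latter are the muscle, the epidermis and cuticle, and the neuron lists. Whether each member of these lists, such as hlh-1, elt-1 and lin-26, is limited to later embryos was not checked. The muscle list had 8 of 8 genes above background, against 51.9% of all named genes. Of these 8, 6 had a range of at least 1 log2, against 6.84% of all named genes above background. The summed signal of the muscle list was 48799, 15509, 25827 and 19337 on arrays 1 to 4, the same array order as in hbl-1 and lin-42. The median deviation of this list was 1.34, -1.09, 0.25 and -0.49. Of the muscle genes, hlh-1 and unc-27 had other orders, with signals of 9449, 8086, 7238 and 8260 and of 1157, 641, 708 and 730. The epidermis and cuticle list, also 8 of 8 above background, summed to 147262, 100218, 108056 and 105796. This sum had the array order of the muscle list, as did its genes dpy-7, sqt-3 and dpy-17. All 8 genes were highest on array 1, but elt-1 and let-413 were lowest on array 3. In lin-26, elt-3 and noah-1 the signal of array 4 exceeded that of array 3. Only 2 of the 8 had a range of at least 1 log2. The neuron list had 4 of 8 above background, with rgef-1 and snt-1 below background and rab-3 and sng-1 not told apart from it. That list summed to 14770, 9392, 10340 and 9749, a sum again in the same array order. Of its genes above background only unc-86 had that order, with signals of 6900, 2370, 3325 and 3016. The gene unc-31 was highest on array 2, and unc-119 and unc-104 were lowest on array 4. The median deviation of the neuron genes above background was only 0.15, -0.02, -0.08 and -0.11. The oocyte and eggshell list, with 7 of 8 above background and perm-2 below, ran differently, at 71059, 92448, 93130 and 103683, with array 1 lowest and array 4 highest, as in lin-41. Its gene mbk-2 went the other way, with signals of 29968, 27577, 27856 and 27942 and array 1 highest. A range of at least 1 log2 was found in 4 of the 7 genes above background, against 6.84% of all named genes above background. The sperm list had 6 of 8 above background, with spe-38 below and spe-11 not told apart, and was also lowest on array 1, with sums of 6097, 14555, 11874 and 9085. The maternal and the early zygotic list were lowest on array 1 as well, by smaller steps, with sums of 150308 to 170233 and of 52441 to 59510. The early zygotic gene vet-2 was lowest on array 4 instead, at 15004. Of all named genes above background, 54.9% were lowest on array 1. All 6 yolk genes of the adult intestine were below background, with sums of 1380 to 1448. The part of these tissues in the array differences of hbl-1, lin-42 and lin-41 was not tested.

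**Figure D4:**
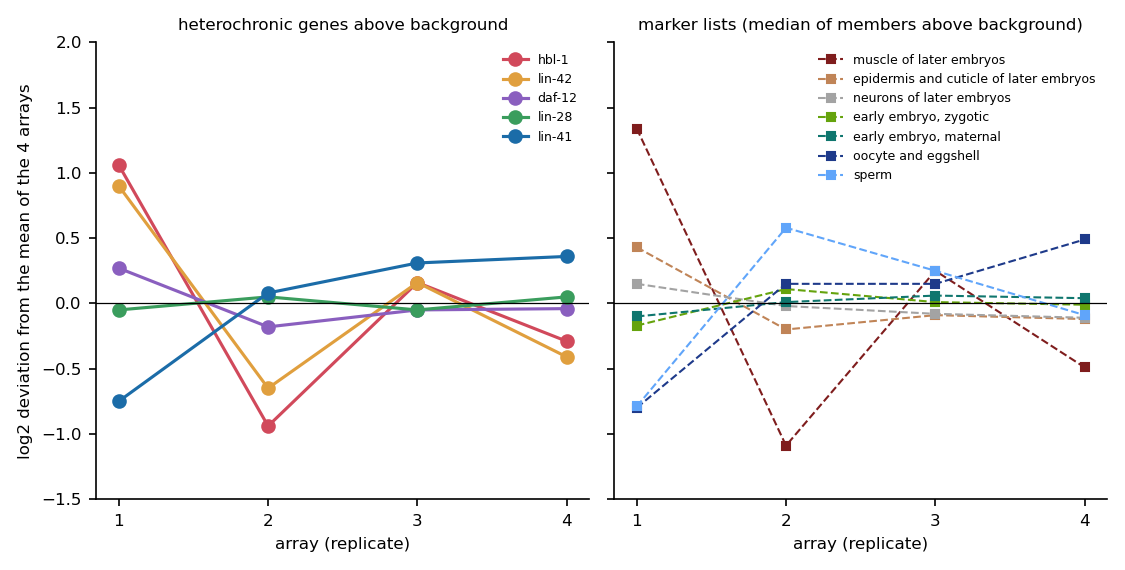
Log2 signal centred on each gene's own mean over the arrays (vertical axis) on arrays 1 to 4 (horizontal axis), for the 5 heterochronic genes above background (left) and as the median over the members above background of 7 marker lists (right). Lines join the values of 1 gene or list and mark no order of the arrays. On array 1, hbl-1 and lin-42 lie at 1.06 and 0.90 and the muscle list at 1.34. On the same array lin-41 lies at -0.75, the oocyte and eggshell list at -0.80 and the sperm list at -0.79.

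The genes whose array pattern was nearest to a heterochronic gene were sought among 685 other named genes above background with a range of at least 1 log2. Likeness was the mean absolute difference of the log2 deviations over the 4 arrays, a description with few points. Nearest to hbl-1 were atf-2, a bZIP transcription factor gene, at 0.029, tmd-2, a tropomodulin gene, at 0.047, and F42C5.9 at 0.049. The signals of atf-2 were 11330, 2891, 5816 and 4519 on arrays 1 to 4. Nearest to lin-42 were ZC247.1 at 0.029, lron-9 at 0.030 and dsc-4 at 0.038. Nearest to lin-41 were F55C9.12 at 0.036, fbxc-42, an F-box gene, at 0.043, and sulp-6, a gene of the sulfate permease family, at 0.053. The signals of fbxc-42 were 531, 988, 1110 and 1078. With so many genes and 4 arrays, close matches of this kind carry no statement about shared control.

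The other genes of the pathway were counted by role. Of 16 partners and modifiers of the pathway, 15 were above background, against 51.9% of all named genes. Among them lin-66 lay 6.19 ± 0.19 log2 above it, sea-2 5.07 ± 0.18, the casein kinase gene kin-20 4.93 ± 0.24 and the F-box gene dre-1 3.98 ± 0.56 (SD, n = 4). The exception was nhr-85, a nuclear receptor gene, at 0.07 ± 0.15 (limma, adjusted p = 0.48). A range of at least 1 log2 was found in 2 of the 15, against 6.84% of all named genes above background. These 2 were named after their values were seen: blmp-1 had signals of 917, 419, 615 and 533 on arrays 1 to 4, and bed-3 had 1045, 415, 698 and 534. Both were highest on array 1 and lowest on array 2, the order of hbl-1 and lin-42.

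The machinery that makes and uses microRNAs was above background throughout, with 12 of 12 genes against 51.9% of all named genes. The Argonaute genes alg-1 and alg-2 lay 5.02 ± 0.39 and 6.53 ± 0.16 log2 above it, and their partners ain-1 and ain-2, genes of the GW182 type, 6.51 ± 0.24 and 6.12 ± 0.20 (SD, n = 4). None of the 12 had a range of at least 1 log2, against 6.84% of all named genes above background. The ranges of the 12 ran from 1.03-fold in alg-2 to 1.40-fold in alg-1. The signals of alg-2 were 29253, 29907, 29328 and 30218 on arrays 1 to 4. Those of alg-1 were 13183, 9854, 9448 and 9513, with array 1 highest.

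In the hormone pathway of DAF-12, 5 of 8 genes were above background, a share near the 51.9% of all named genes. The corepressor gene din-1 lay 5.94 ± 0.23 log2 above it, the dehydrogenase gene dhs-16 1.73 ± 1.03, and the cholesterol transport genes ncr-1 and ncr-2 1.52 ± 0.68 and 0.83 ± 0.37 (SD, n = 4). The cytochrome P450 gene daf-9, which makes the ligands of DAF-12, was below background with signals of 157, 142, 152 and 135, at -1.13 ± 0.27 (SD, n = 4; limma, adjusted p = 2.65e-05). The oxygenase gene daf-36 and the dehydrogenase gene hsd-1, at -0.11 and -0.21, were not told apart from it (adjusted p = 0.449 and 0.0543). The signals of dhs-16 were 2425, 611, 1055 and 820, again highest on array 1 and lowest on array 2, while ncr-2 had 358, 767, 674 and 561, with array 1 lowest.

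Of the 8 genes listed as outputs around the switch to the adult, 2 were above background and 6 were below it, against 51.9% and 39.2% of all named genes. Those above were mab-3, a DM-domain factor gene, at 0.67 ± 0.09 log2, and mlt-10, a gene of the molting cycle, at 5.17 ± 0.25 (SD, n = 4). The adult collagen gene col-19, an output of LIN-29, had signals of 225, 173, 206 and 195 and lay at -0.69 ± 0.33 (SD, n = 4; limma, adjusted p = 0.0011). Below background were also dmd-3 at -0.52, the collagen genes col-7, bli-1 and bli-2 at -0.88, -0.51 and -0.52, and the protease gene nas-37 at -0.89. These 6 genes lay on the same side of the main background as lin-29. The side depended on the background, since with the 75th chemoreceptor percentile lin-29 and 5 of the 8 outputs were above. Whether the probes of these 6 genes respond could not be checked on an array of another stage. Absence of the transcripts therefore cannot be inferred, and the same holds for lin-14, lin-29 and lin-46.

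**Figure D5:**
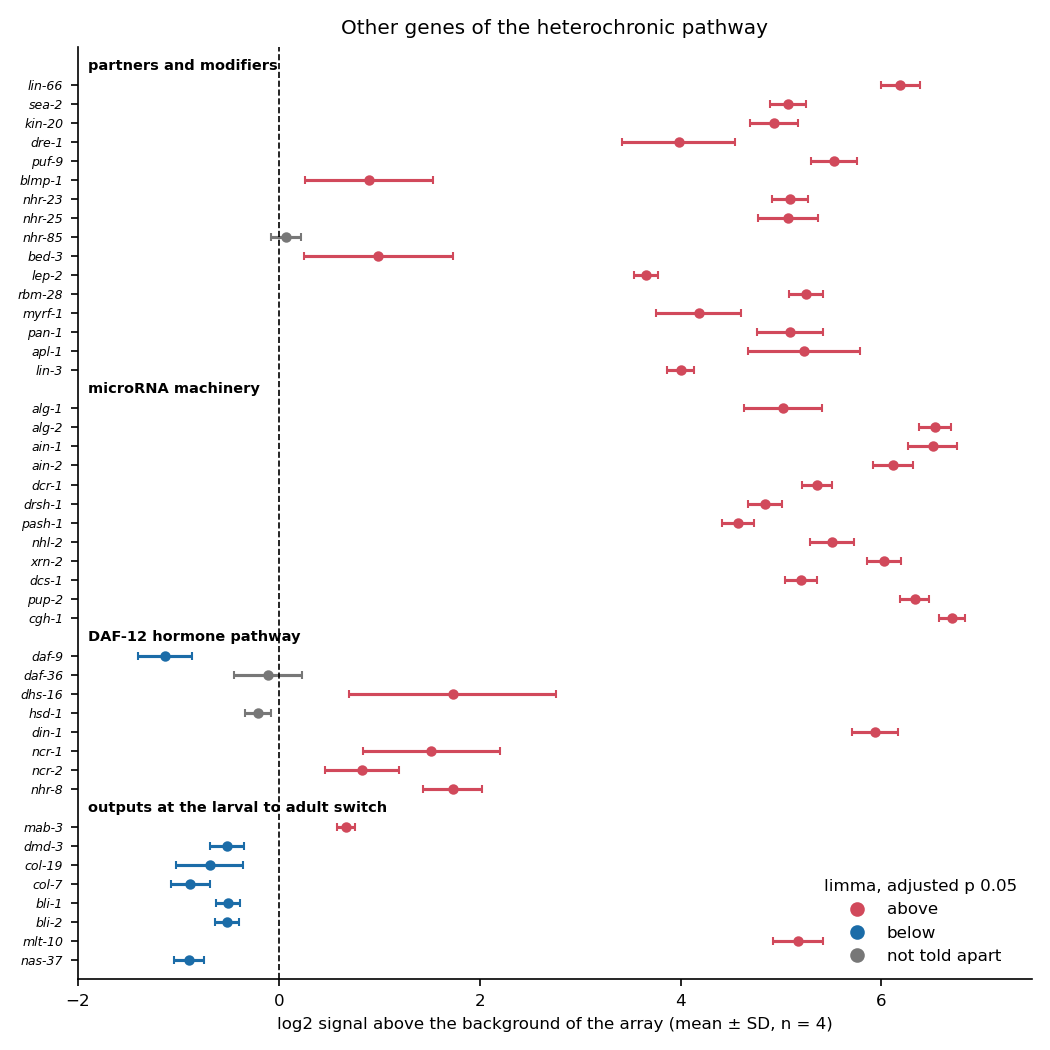
Log2 signal above the background of the array (horizontal axis, mean ± SD, n = 4) for the other genes of the pathway, by list, coloured by the limma call. The microRNA machinery lies between 4.57 and 6.70 throughout, whereas 6 of 8 outputs around the switch to the adult lie between -0.89 and -0.51.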

How the data were processed

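Per the labels' protocols, NimbleGen labelled the total RNA with Cy3. The deposited files hold linear intensity values. Their headers and names say that the authors applied quantile normalization and averaging, which left 1 value for each transcript row. Scanner, background correction, genome build and probes per row: not given in the sources used here. Quantile normalization hides any shift shared by most transcripts. The series table equalled the single tables (largest difference 0). Names came from a RefSeq table of assembly WBcel235: 17151 rows matched as written, 5352 without the isoform letter, and 678 did not match. Values under 1 would have been raised to 1 before log2; there were 0.

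Log2 signal minus the background of each array was fitted with limma 3.58.1 (R 4.3.3; lmFit, eBayes, intercept only, two-sided) with Benjamini-Hochberg adjustment over 23181 rows. An error of the background is shared by all rows of an array and is not independent between rows. The row with the highest mean stood for a gene, which was above background if any of its rows was. On simulated data of this comparison with 23181 rows, 68% of 50 rows set 0.25 log2 above background, 92% set at 0.5 and 98% set at 1 were called, and 4% of 200 rows with no difference were. The simulated noise was drawn separately for each row. These shares therefore do not cover a background error shared by the rows of an array.

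The 9 genes, the lists and the tests were chosen with earlier results of these data known. Named were all 9 genes, for each other pathway list up to 4 first-listed genes above background and every gene not above, and the 3 nearest genes in array pattern. Alternatives were 3 other backgrounds, a shared background, gene means, a variance trend, another centring, the SD as spread, and each replicate left out.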

Additional observations from a re-analysis of the deposited data

Results flagged for a closer look

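In 62 rows and genes of the pathway, the gap between the highest or lowest array and its nearest neighbour was compared with the whole range. It exceeded Dixon's limit for 4 samples in 2 of them, where chance puts about 5% of groups past it. For apl-1, an amyloid precursor gene whose larval expression in seam cells depends on let-7, the ratio was 0.949. Its signals were 18076, 10352, 10362 and 10652, with array 1 apart. For the Argonaute gene alg-1 the ratio was 0.874, with signals of 13183, 9854, 9448 and 9513, again with array 1 apart. None of the 18 rows of the 9 heterochronic genes passed the limit. The cause was not tested.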

How the results depend on the processing

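The calls of lin-28, hbl-1, lin-41 and lin-42 held under every alternative run, and those of the genes near background did not. Under 2 lower backgrounds, the 75th chemoreceptor percentile and the 25th percentile over all genes, 8 of the 9 genes were above. The genes lin-29 (0.53 and 0.46) and lin-46 (0.67 and 0.61) then changed sign, mab-10 passed (1.01 and 0.95), and 5 of 8 outputs around the switch to the adult were above. With the 75th percentile lin-14 was not told apart from background (-0.18). With the 99th percentile daf-12 (-0.04) changed sign without passing the threshold, mab-10 changed sign and was called below (-0.74), lin-46 was called below (-1.08), and 3 of 8 hormone pathway genes and 1 of 8 outputs were above. With 1 background for all arrays lin-46 was called below (-0.17). With each replicate left out, lin-29 ranged from -0.37 to -0.26, lin-46 from -0.19 to -0.13 and mab-10 from 0.14 to 0.21. The genes above background were 5 or 6 of 9, the sixth being mab-10 without array 1. In that fit limma's prior degrees of freedom were 269 against 4.56 with all arrays, so its p-values lean on the spread pooled over all rows. Over the 9 genes the median range was 0.45 log2, and 0.17 to 0.45 with a replicate left out. The cause of these changes was not tested, beyond the height of the background itself. No paired analysis was possible because there is only 1 group. Genes within about 1 log2 of background are limited by where the background is set.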
